A study of Mus musculus with 10 samples.

Results

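The 10 genes described here encode receptors that steer lymphocytes to tissues: the chemokine receptors Cxcr3, Cxcr4, Cxcr5, Ccr2, Ccr6, Ccr7, Ccr9 and Ccr10, the atypical chemokine receptor Ackr3, and Gpr183 (EBI2), the receptor for oxysterols. They were taken by symbol from the 47719 gene identifiers of the deposited expression tables, and each symbol matched 1 identifier. The study profiled sorted plasma cells from mouse spleen by RNA-seq, with 5 libraries in each of 2 groups, IgM and IgG1. The cells of both groups came from donor B cells with S1PR2-CreERT2, Ai14 and B1-8germ, transferred into wild-type mice. S1PR2-CreERT2 is a Cre recombinase driven by a gene of germinal centre B cells and active only with tamoxifen. Ai14 is a reporter that makes tdTomato once Cre has acted. B1-8germ is a rearranged heavy chain variable region that gives binding to the hapten NP. Recipients of both groups were immunized with NP-CGG in alum on day 0 and given tamoxifen on days 5 and 6, and tdTomato-positive donor plasma cells of the spleen were sorted on day 10. As a model, the donor B cells of both groups carry the B1-8germ variable region, and the sorted cells carry a mark set by Cre at the time of tamoxifen. The comparison asks how IgM and IgG1 plasma cells with this mark differ. Nothing in the labels says that libraries of a group came from separate mice, so the spread that p-values rest on may in part be technical.

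Chemokine receptors are G protein-coupled receptors that sense gradients of small secreted proteins and signal mainly through Gi proteins, which turn on integrins and the actin cytoskeleton. In B cells, CXCR5 with its ligand CXCL13 draws cells into follicles, CCR7 draws them towards the T cell zone, and GPR183 to oxysterols at the follicle edge. Cells that become plasma cells are known to lose CXCR5 and CCR7 and to rely on CXCR4, whose ligand CXCL12 is made in the red pulp and the bone marrow, while CXCR3, CCR10 and CCR9 are known for homing to inflamed tissue, mucosa and gut.

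Levels are FPKM, fragments scaled to transcript length and to the size of the library, so they can be compared between genes. Depth estimated from the spacing of low values was 25770000 to 29960000 fragments in IgM and 25520000 to 36990000 in IgG1 libraries. Genes above 0 numbered 15121 to 15800 in IgM and 13286 to 13961 in IgG1 libraries, without overlap. The plasma cell markers Sdc1 (266 to 299 FPKM in IgM, 242 to 276 in IgG1) and Xbp1 (2765 to 3087 and 3058 to 3367) were high in every library. The summed FPKM of the 8 plasma cell markers was 47339 to 52649 in IgM and 30210 to 33876 in IgG1 libraries, without overlap. Most of it was Jchain (36165 to 40282 and 19438 to 23043), and Tnfrsf17 was also lower in IgG1 (121 to 146 and 42.2 to 51.8). Xbp1 alone of the 8 had a higher mean in IgG1 libraries. Ncr1 and S100a8, defining genes of NK cells and neutrophils, were listed at 0 in all 10 libraries. The T cell gene Cd3e reached at most 0.0887, but Trac reached 3.91, Cd4 3.10 and Lck 3.09 FPKM (these markers, and others beyond the defining ones, were named after their values were seen). The monocyte genes Csf1r and Lyz2 reached at most 1.07 and 2.36 FPKM, while the summed FPKM of the 10 monocyte and macrophage markers was 126 to 234 in IgM and 109 to 155 in IgG1 libraries, mostly Ly6c2 (90.2 to 198 and 90.4 to 132) and Cd68 (28.7 to 36.0 and 10.6 to 15.0). The dendritic cell gene Flt3 reached at most 2.76, the erythroid gene Hba-a1 at most 1.88, the platelet gene Ppbp at most 1.49 and the endothelial gene Pecam1, also known from plasma cells, at most 7.75 FPKM.

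RefSeq's promoter table held entries for 7 of the 10 receptors on GRCm38.p6. Those of Cxcr3, Cxcr4 and Gpr183 are printed here because transcripts of these 3 genes were higher in IgG1 cells, so that the DNA in front of receptors that moved the same way can be compared. Each run lies upstream of both the RefSeq and the GENCODE start and reads 5′ to 3′ on the minus strand, at chrX:101734270-101734397 for Cxcr3, chr1:128592300-128592549 for Cxcr4 and chr14:121965196-121965443 for Gpr183. Capitals mark matches, on either strand, to the TATA box TATAAA, the GC box GGGCGG and the NRF-1 core CGCATGCG.
Cxcr3: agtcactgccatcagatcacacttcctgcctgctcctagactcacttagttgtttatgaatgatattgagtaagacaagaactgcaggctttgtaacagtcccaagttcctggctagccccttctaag
Cxcr4: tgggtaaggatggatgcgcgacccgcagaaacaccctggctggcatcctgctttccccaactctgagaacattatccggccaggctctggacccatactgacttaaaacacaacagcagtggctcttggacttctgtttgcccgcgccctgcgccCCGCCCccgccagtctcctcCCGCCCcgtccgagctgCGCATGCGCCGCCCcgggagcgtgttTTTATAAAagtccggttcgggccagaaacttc
Gpr183: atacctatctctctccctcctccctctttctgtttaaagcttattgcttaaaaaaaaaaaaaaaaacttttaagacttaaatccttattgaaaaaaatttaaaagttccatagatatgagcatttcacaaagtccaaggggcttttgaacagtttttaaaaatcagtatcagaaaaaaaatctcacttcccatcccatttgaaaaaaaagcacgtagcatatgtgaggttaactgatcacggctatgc
The 3 stretches had little in common. That of Cxcr4 was 61.2% G and C and held 3 GC boxes, 1 NRF-1 core and 2 overlapping TATA matches on opposite strands, 25 to 32 bases upstream of the RefSeq start. That of Gpr183 was 31.9% G and C, with runs of A and T, and that of Cxcr3 45.3%, and neither held any of these 3 motifs. Among all 32851 promoter windows of 250 bases, 12.4% held the TATA box, 32.7% the GC box and 1.55% the NRF-1 core. The Cxcr3 stretch is shorter, 128 bases, because its GENCODE start (101734269) lies upstream of its RefSeq start (101734147). Bases between these starts were not searched, so a motif just upstream of the RefSeq start would be missed. Over windows of that length, taken from the upstream end of each promoter entry, the shares were 6.38, 13.8 and 0.399%. The octamer ATGCAAAT (in 1.60% of the 250-base windows) and the AP-1 motif TGANTCA (6.75%) were in none of the 3 stretches, CACCC (52.0%) was once in that of Cxcr4, and the E-box CANNTG (66.2%) was at 2 places in that of Gpr183. The motifs were chosen after the sequences had been seen, and a match is a string of letters, not a shown binding site.

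Of the 10 receptors, 5 had a mean of at least 1 FPKM over the 10 libraries and entered the test, and the other 5 are given as values. Cxcr3, Ccr10, Cxcr4 and Gpr183 were higher in IgG1 cells, 1.48-fold to 2.43-fold in mean FPKM, and Cxcr5 was higher in IgM cells. Over all 9900 genes tested with limma on log2(FPKM + 1), 38.3% passed at an adjusted p of 0.05, 18.1% higher and 20.2% lower in IgG1 cells, and in 26.3% the groups did not overlap. Among the 5 tested receptors all passed, 4 higher and 1 lower, the median log2 difference (IgG1 minus IgM) was 0.56 against -0.05 over all genes, and in 4 the groups did not overlap. Cxcr5 met the 1 FPKM filter only through the IgM libraries and so had to differ, and 5 genes are too few to set apart from the background. Under quantile normalization the split over all genes turned from 1791 higher and 2001 lower to 2182 and 1510, with the median at 0.06, and the 5 receptors kept their directions. In these bulk libraries, fewer cells that use a receptor and less of its RNA per cell cannot be told apart.

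**Figure D1:**
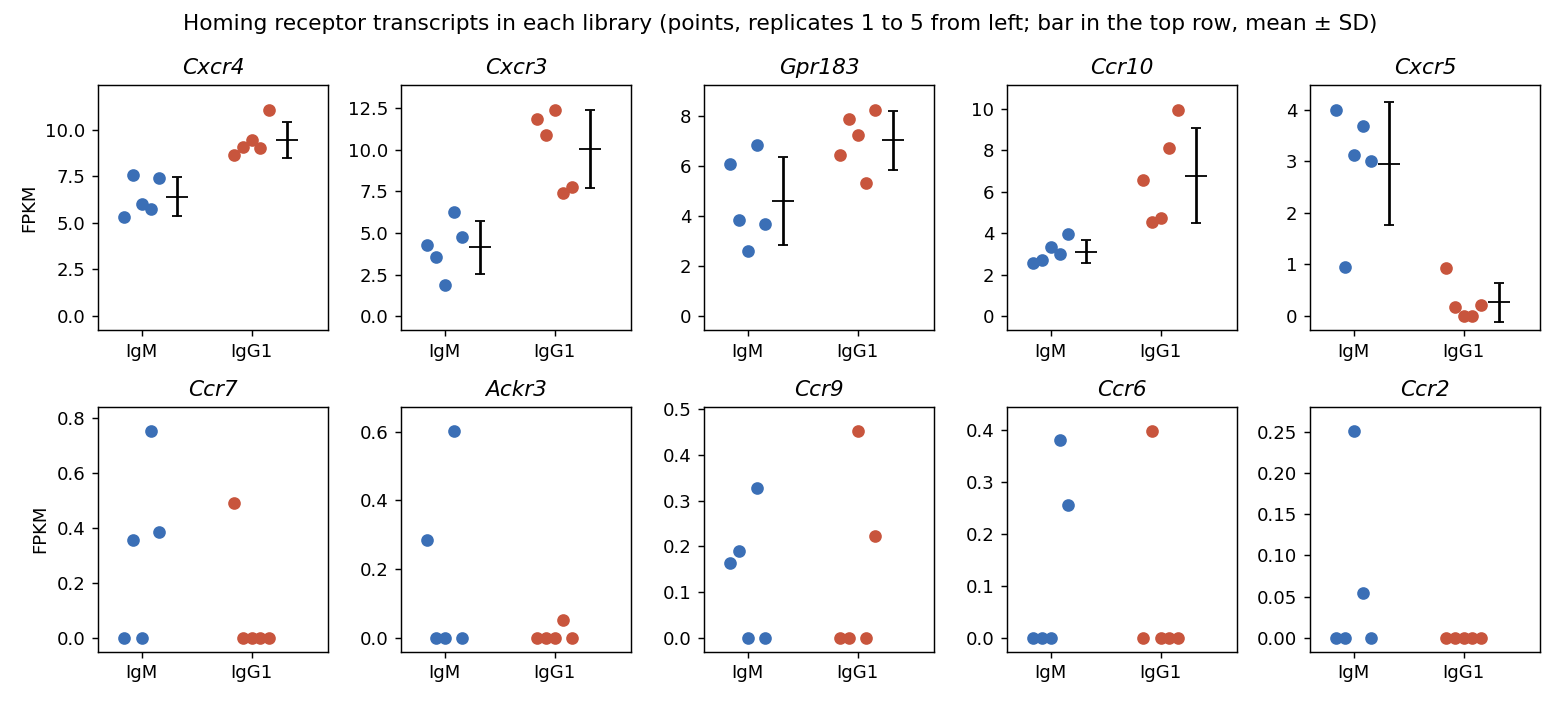
FPKM (vertical axes, 1 scale per gene) of the 10 receptors in 5 IgM (blue) and 5 IgG1 (red) libraries; each point is 1 library, and in the top row bars give mean ± SD. Cxcr4, Cxcr3 and Ccr10 were higher in every IgG1 than in any IgM library, Cxcr5 was lower, the Gpr183 groups overlapped, and the genes of the bottom row stayed below 1 FPKM in every library.

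Cxcr3 (ENSMUSG00000050232, chromosome X, 101731535 to 101734269, minus strand) is the receptor for the interferon-induced chemokines CXCL9, CXCL10 and CXCL11 and had the largest rise among the tested receptors. In IgM replicates 1 to 5 it stood at 4.29, 3.55, 1.88, 6.24 and 4.74 FPKM, and in IgG1 replicates 1 to 5 at 11.8, 10.9, 12.4, 7.39 and 7.77 FPKM. The groups did not overlap, and IgG1 replicates 4 and 5 were nearest to the IgM libraries. The means were 4.14 ± 1.60 in IgM and 10.1 ± 2.33 in IgG1 (SD, n = 5 each), 2.43-fold higher in IgG1 (log2 difference 1.14, SE 0.23, limma adjusted p = 6.52e-04). At the estimated depths this is about 86 to 257 fragments in IgM and 360 to 690 in IgG1 libraries. T cells also use Cxcr3. The summed FPKM of the 10 T cell markers was 41.4 to 60.8 in IgM and 32.8 to 39.3 in IgG1 libraries, mostly Cd28 (36.0 to 56.8 and 30.5 to 35.5), which plasma cells also express, with Cd3e at or near 0 in all. Its members did not move together: Trac was at 1.38 to 3.91 FPKM in IgM and 0 to 0.696 in IgG1 libraries, whereas Cd4, like Cxcr3, was higher in every IgG1 library (0 to 0.726 and 0.773 to 3.10). The part of T cells in the Cxcr3 result was not tested. Across IgM libraries, Ighg1 made up 15.6, 11.0, 9.21, 17.3 and 13.7% of heavy chain constant region FPKM in replicates 1 to 5, so replicate 3 was lowest and replicate 4 highest for both Ighg1 and Cxcr3, and its part in the result was not tested.

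Ccr10 (ENSMUSG00000044052, chromosome 11, 101172997 to 101175443, minus strand), the receptor for the epithelial chemokines CCL27 and CCL28 known from IgA plasma cells, was higher in IgG1 cells. Its level was 2.56, 2.69, 3.35, 3.02 and 3.95 FPKM in IgM replicates 1 to 5 and 6.55, 4.55, 4.73, 8.10 and 9.97 FPKM in IgG1 replicates 1 to 5. Every IgG1 library lay above every IgM library, and the IgG1 libraries spread more widely, with replicates 4 and 5 at the top. Mean FPKM was 3.11 ± 0.559 in IgM and 6.78 ± 2.30 in IgG1 (SD, n = 5 each), a 2.18-fold difference (log2 difference 0.88, SE 0.21, limma adjusted p = 0.00284). Ccr10 lies inside Cntnap1 on the other strand with no shared exon bases, and the kit keeps no strand, but Cntnap1 was at 0.0330 to 0.151 FPKM.

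The same 2 IgG1 libraries, replicates 4 and 5, were thus lowest of their group for Cxcr3 and highest for Ccr10. Without both, a setting chosen after the data were seen, the log2 difference was 1.37 for Cxcr3 (adjusted p = 8.35e-04, from 1.68e-04 to 0.0158 over all its alternatives) and 0.61 for Ccr10 (adjusted p = 0.0432, the highest of its alternatives, the lowest being 5.31e-04). Both genes still passed.

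Cxcr4 (ENSMUSG00000045382, chromosome 1, 128588199 to 128592293, minus strand), the CXCL12 receptor that retains plasma cells in the bone marrow, was higher in IgG1 cells by a smaller factor. IgM replicates 1 to 5 had 5.31, 7.60, 5.99, 5.74 and 7.41 FPKM, and IgG1 replicates 1 to 5 had 8.64, 9.06, 9.47, 9.04 and 11.1 FPKM. The groups did not overlap, and the nearest libraries were IgM replicate 2 and IgG1 replicate 1. The means were 6.41 ± 1.03 and 9.46 ± 0.954 (SD, n = 5 each), 1.48-fold higher in IgG1 (log2 difference 0.50, SE 0.15, limma adjusted p = 0.0140). Without IgG1 replicates 4 and 5 together the call was lost (0.45, adjusted p = 0.0691, where the alternatives ranged from 0.00216 to this value).

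Ackr3 (ENSMUSG00000044337, chromosome 1, 90203980 to 90216751, plus strand) also binds CXCL12 and removes it without G protein signalling. It was listed at 0.284 FPKM in IgM replicate 1, 0.601 in IgM replicate 4 and 0.0515 in IgG1 replicate 4, and at 0 in the other 7 libraries. At these levels no difference between the groups was detectable, and in a fit of all 24060 genes above 0 somewhere its adjusted p was 0.437.

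Gpr183 (ENSMUSG00000051212, chromosome 14, 121952551 to 121965195, minus strand) is the receptor for the oxysterol 7α,25-dihydroxycholesterol. Libraries of IgM replicates 1 to 5 had 6.09, 3.82, 2.60, 6.83 and 3.69 FPKM, and those of IgG1 replicates 1 to 5 had 6.43, 7.89, 7.25, 5.32 and 8.26 FPKM. The groups overlapped, since IgM replicates 1 and 4 lay above IgG1 replicate 4, and IgM replicate 4 above IgG1 replicate 1 as well. The means of 4.61 ± 1.78 and 7.03 ± 1.18 (SD, n = 5 each) differed 1.53-fold, and the difference passed narrowly (log2 difference 0.56, SE 0.21, limma adjusted p = 0.0454). This call is the weakest of the 5: it was lost in 12 of 21 alternatives, including without IgM replicate 2, 3 or 5 or without IgG1 replicate 1, 2, 3 or 5 (adjusted p = 0.0586 to 0.123), in all of which IgG1 stayed higher, and its adjusted p ranged from 0.0102 to 0.172 over all of them. Gpr183 lies within Ubac2 on the other strand, with no shared exon bases, and Ubac2 stood at 50.7 ± 7.27 (IgM) and 49.3 ± 6.69 FPKM (IgG1; SD, n = 5 each), and without strand, reads of unspliced Ubac2 RNA cannot be told apart from Gpr183. As with Cxcr3, IgM replicate 3 was lowest and replicate 4 highest.

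Cxcr5 (ENSMUSG00000047880, chromosome 9, 44511787 to 44561877, minus strand), the follicle homing receptor, differed the other way. It was at 4.00, 0.955, 3.12, 3.68 and 3.01 FPKM in IgM replicates 1 to 5 and at 0.923, 0.183, 0, 0 and 0.221 FPKM in IgG1 replicates 1 to 5. IgM replicate 2 stood well below the other IgM libraries, and it and IgG1 replicate 1 nearly met. The mean of 2.95 ± 1.19 in IgM was 11.1 times that of 0.265 ± 0.382 in IgG1 (SD, n = 5 each), and 29.3 times without IgG1 replicate 1 (log2 difference of all libraries -1.62, SE 0.29, limma adjusted p = 2.60e-04). Because the pseudocount of 1 is large beside these levels, the log2 difference was -3.49 with a pseudocount of 0.1 and -0.58 with 5. The summed FPKM of 8 mature B cell markers was also higher in IgM libraries, at 69.1 to 95.8 against 45.9 to 59.5 in IgG1 libraries. Most of that sum was Ms4a1, which encodes CD20 (53.7 to 76.4 and 35.4 to 51.2), Cr2 was at 0.962 to 2.39 and 0 to 1.05, and Pax5, which defines B cells before the plasma cell stage, reached at most 0.335. The germinal centre markers did not move together. Gcsam was at 13.9 to 15.9 FPKM in IgM and 2.89 to 5.06 in IgG1 libraries. Fas was at 17.2 to 29.8 and 23.1 to 28.1, and S1pr2 at 7.39 to 9.88 and 6.23 to 11.8. More genes were above 0 in IgM libraries in general. The part of these markers, of that wider difference or of B cells in the sort, in the Cxcr5 result was not tested. Cxcr5 shares 110 of its 3332 exon bases with Bcl9l on the other strand, which was at 0 to 0.223 FPKM.

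Ccr7 (ENSMUSG00000037944, chromosome 11, 99144196 to 99155077, minus strand), the receptor for CCL19 and CCL21 in the T cell zone, was low in all libraries. It was at 0.356, 0.753 and 0.386 FPKM in IgM replicates 2, 4 and 5 and at 0.492 in IgG1 replicate 1, and was listed at 0 in the other 6 libraries. The highest of these is about 36 fragments. More genes were above 0 in IgM libraries in general, and the part of that in the number of IgM libraries with Ccr7 was not tested. Its adjusted p without a filter was 0.495 (limma).

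The last 3 receptors were as low. Ccr9 (ENSMUSG00000029530, chromosome 9, 123678439 to 123784330, plus strand), the gut homing receptor for CCL25, was at 0.164, 0.189 and 0.328 FPKM in IgM replicates 1, 2 and 4, at 0.451 and 0.223 in IgG1 replicates 3 and 5, and at 0 elsewhere. Ccr6 (ENSMUSG00000040899, chromosome 17, 8236043 to 8257141, plus strand), the CCL20 receptor of B cells and some T cells, was at 0.381 and 0.257 in IgM replicates 4 and 5, at 0.397 in IgG1 replicate 2 and at 0 elsewhere. For both genes, some libraries of each group had a value and most did not. Ccr2 (ENSMUSG00000049103, chromosome 9, 124101950 to 124113557, plus strand), the CCL2 receptor of monocytes, was at 0.251 and 0.0540 in IgM replicates 3 and 4 and at 0 in all 5 IgG1 libraries. Without a filter their adjusted p-values were 0.964, 0.742 and 0.490, so no difference was detectable at these levels.

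**Figure D2:**
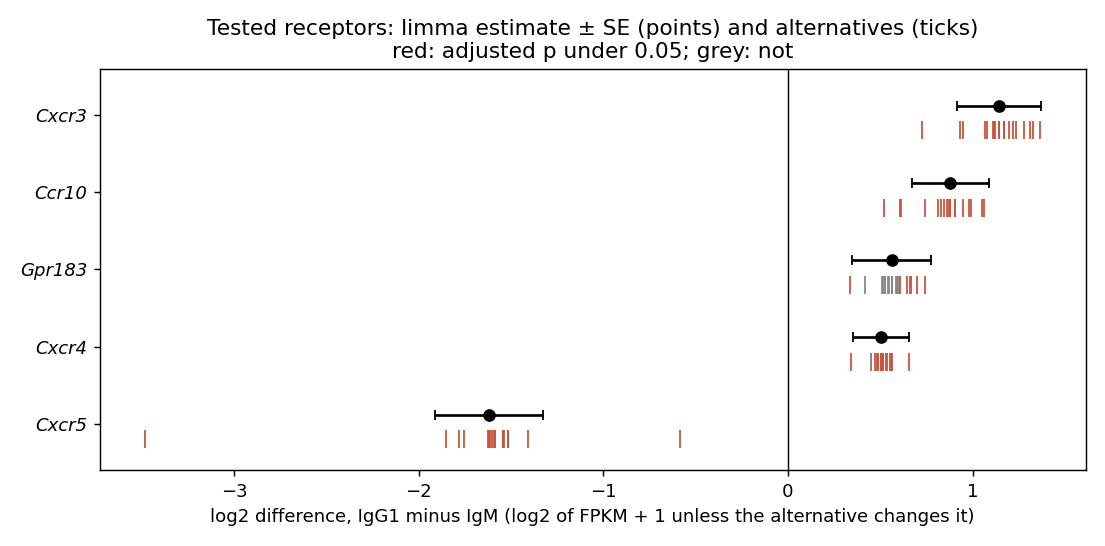
Log2 difference, IgG1 minus IgM (horizontal axis), of the 5 tested receptors: black points with bars are the limma estimate ± SE from all 10 libraries, and ticks below each are the alternatives, red where the adjusted p was under 0.05 and grey where not. No tick crosses 0; the grey ticks belong to Gpr183 and, once, to Cxcr4, and the outlying Cxcr5 ticks at -3.49 and -0.58 are those with another pseudocount.

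Summed over the 10 genes, receptor transcripts were more abundant in IgG1 cells and differently composed. Their summed level was 22.7, 19.2, 17.2, 27.6 and 23.4 FPKM in IgM replicates 1 to 5 and 34.9, 33.0, 34.3, 29.9 and 37.5 FPKM in IgG1 replicates 1 to 5, with means of 22.0 ± 4.04 and 33.9 ± 2.79 (SD, n = 5 each). The groups did not overlap. The 5 tested genes made up 92.3 to 98.5% of this sum in IgM and 98.6 to 99.8% in IgG1 libraries. The sum thus mostly restates the 4 tested genes called higher, while Cxcr5 was lower.

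In IgM cells the order by mean FPKM was Cxcr4, Gpr183, Cxcr3, Ccr10 and Cxcr5, and no neighbours in this run were apart in every library, whereas Cxcr5 was above Ccr7, the next, in every pairing of libraries. In IgG1 cells the order was Cxcr3 and Cxcr4, whose libraries overlapped, then Gpr183 and Ccr10, which overlapped too, then Cxcr5. Cxcr4 was above Gpr183, and Ccr10 above Cxcr5, in every pairing. The most abundant receptor transcript was Cxcr4 in IgM replicates 2, 3 and 5, Gpr183 in IgM replicates 1 and 4, Cxcr3 in IgG1 replicates 1, 2 and 3 and Cxcr4 in IgG1 replicates 4 and 5. Thus Cxcr3 led in 3 IgG1 libraries and in no IgM library.

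Shares of the summed level show what shifted. Cxcr5 made up 13.4% ± 5.28 in IgM and 0.758% ± 1.09 in IgG1, and Cxcr3 18.2% ± 4.39 and 29.7% ± 6.64 (SD, n = 5 each). Ccr10 made up 14.5% ± 3.65 and 20.0% ± 6.55, a difference smaller than its SD in IgG1. The shares of Cxcr3 and of Ccr10 overlapped between the groups. For Cxcr3, IgG1 replicate 5 at 20.7% lay below IgM replicate 4 at 22.6%. For Ccr10, IgG1 replicates 2 and 3, both at 13.8%, lay below IgM replicate 3 at 19.5%. Cxcr4, at 30.1% ± 7.88 and 27.9% ± 2.13, and Gpr183, at 20.5% ± 5.24 and 20.7% ± 2.55, held shares that differed by less than their spread. Set against Cxcr4 alone, Cxcr5 was 43.0, 11.2, 34.3, 39.1 and 28.9% of the sum of both genes in IgM replicates 1 to 5. In IgG1 replicates 1 to 5 this was 9.66, 1.98, 0, 0 and 1.95%. IgM replicate 2 and IgG1 replicate 1 were again the closest.

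**Figure D3:**
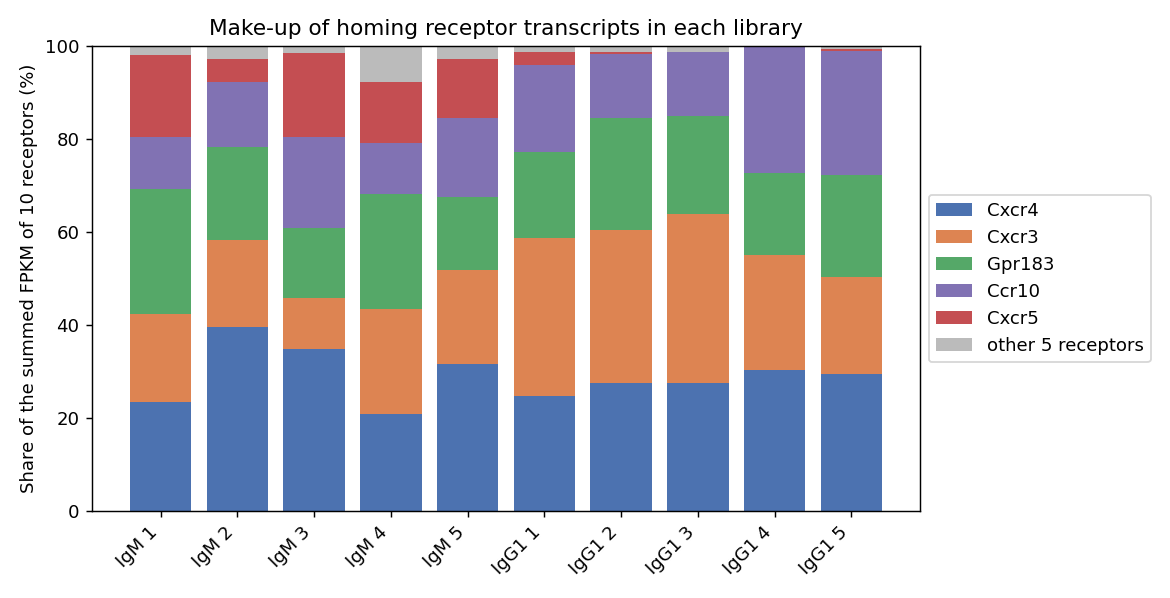
Share of the summed FPKM of the 10 receptors (vertical axis, %) taken by each of the 5 tested genes and by the other 5 together, 1 bar per library. Cxcr5 (red) is visible in all 5 IgM bars and nearly gone from the IgG1 bars, while Cxcr3 (orange) is widest in IgG1 replicates 1 to 3 and Ccr10 (purple) in IgG1 replicates 4 and 5.

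The surrounding pathway was followed in 8 lists of 134 genes, of which 73 entered the test. Of these, 10 were higher and 17 lower in IgG1 cells, 37.0% in all against 38.3% over all genes, and the median log2 difference was -0.09 against -0.05, so the pathway as a whole was close to the background.

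Other chemokine receptors were mostly below the filter, with 4 of 15 listed at 0 throughout. Of the 15, only Ccrl2, an atypical receptor that presents chemerin, reached the filter, at 3.90 ± 1.27 FPKM in IgM and 2.37 ± 0.645 in IgG1 (SD, n = 5 each), and it did not pass (log2 difference -0.52, limma adjusted p = 0.0801). It passed without IgM replicate 5 (adjusted p = 0.0285, the lowest of its leave-one-out values, which reached 0.185). Of the 15 ligands, Mif and Ccl25 were tested, and 10 of the 17 identifiers for these ligands were listed at 0 throughout. Mif, a cytokine that binds CXCR4 and CD74, was at 183 to 193 FPKM in IgM and 344 to 377 in IgG1 libraries. The groups stood far apart (1.93-fold, log2 difference 0.95, SE 0.05, limma adjusted p = 1.04e-10). None of 5 enzymes of oxysterol metabolism reached the filter. Cyp27a1, a sterol hydroxylase, was at 0.235 to 1.08 FPKM in IgM libraries and at 0 to 0.0375 in IgG1 libraries, and Hsd3b7, which breaks the GPR183 ligand down, was at 0.138 to 1.65 and 0 to 0.291 FPKM.

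Among G protein subunits, 2 of 14 tested genes were higher in IgG1 cells and 3 lower, near the shares over all genes (18.1% and 20.2%). The γ subunit gene Gng5 rose from 154 ± 8.33 to 230 ± 14.4 FPKM (log2 difference 0.58, limma adjusted p = 4.68e-07), and Gnai2, the Gi α subunit most used in lymphocyte chemotaxis, from 78.1 ± 3.05 to 93.2 ± 8.00 FPKM (0.25, adjusted p = 0.00987; SD, n = 5 each). Gnai2 did not hold: its difference was 0.17 under quantile normalization (adjusted p = 0.0722) and 0.01 once trends with GC content and transcript length were removed (adjusted p = 0.950, the highest of its alternatives). Lower in IgG1 were Gnaq, the Gq α subunit (11.0 ± 1.26 to 4.92 ± 1.46 FPKM, log2 difference -1.05, adjusted p = 1.26e-04), Gnas, the Gs α subunit (558 ± 40.9 to 400.3 ± 32.4 FPKM, -0.48, adjusted p = 6.02e-06), and Gnai3 (-0.27, adjusted p = 0.0348). Gnai3 was named after its values were seen and was not put through the alternatives. The 2 Gi α genes went opposite ways in the main test, but the Gnai2 call did not hold. Of 6 tested regulators of G protein signalling, which shorten the signal by speeding GTP hydrolysis, Rgs1 was lower. It was at 0.946, 1.17, 4.16, 4.89 and 1.74 FPKM in IgM replicates 1 to 5, at 0.408 and 1.06 in IgG1 replicates 3 and 5 and at 0 in the other 3, so that IgG1 replicate 5 overlapped the IgM range. The difference was -1.38 on the log2 scale (limma adjusted p = 0.00361). The mean was 8.78 times higher in IgM, and 25.3 times without IgG1 replicate 5. Rgs1, like Cxcr5, met the filter only through IgM libraries.

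Of 11 tested receptor kinases, arrestins and sorting factors, 4 passed, all lower in IgG1 cells, where 38.3% of all genes passed and 20.2% were lower, so the number that passed was near the background. Itch, the ubiquitin ligase that sends CXCR4 to degradation, fell from 35.4 ± 1.89 to 20.5 ± 2.54 FPKM (log2 difference -0.77, limma adjusted p = 1.27e-05), and Usp8, an endosomal deubiquitinase, from 27.2 ± 2.31 to 19.3 ± 3.92 FPKM (-0.49, adjusted p = 0.00558; SD, n = 5 each). Vps4b, an ATPase of endosomal sorting (-0.33, adjusted p = 0.0196), and Grk4, a receptor kinase (-0.96, adjusted p = 0.0211), passed less firmly, Vps4b failing in 7 alternatives (adjusted p up to 0.327) and Grk4 in 4 (up to 0.128). Grk4 was at 2.88 to 3.07 FPKM in IgM libraries and at 0.137, 0.271, 3.62, 1.48 and 1.17 in IgG1 replicates 1 to 5, so IgG1 replicate 3 lay above all IgM libraries. Its IgM mean was 2.22 times the IgG1 mean, and 3.88 times without that library.

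Downstream effectors of migration split 7 higher and 3 lower among 25 tested, a number that passed near the 38.3% over all genes. Rasgrp2, which activates the integrin regulator Rap1, rose from 7.93 ± 2.63 to 21.0 ± 4.12 FPKM (2.65-fold, log2 difference 1.34, limma adjusted p = 6.42e-05). The actin regulators Coro1a, at 195 ± 11.1 and 289 ± 21.0 FPKM (0.56, adjusted p = 9.41e-07), and Cfl1, at 1019.8 ± 54.5 and 1388 ± 35.4 FPKM (0.45, adjusted p = 1.52e-07), rose as well. Rap1a itself fell from 449 ± 22.0 to 353 ± 17.1 FPKM (-0.35, adjusted p = 2.28e-05; SD, n = 5 each). So the activator and its GTPase moved in opposite directions. The other genes lower in IgG1, named after their values were seen, were Rap1b (-0.33, adjusted p = 0.00201) and Pik3cg, a phosphoinositide kinase driven by Gβγ (-0.43, adjusted p = 3.17e-04).

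Of 14 tested transcription factors known to regulate these receptors, 6 passed, all lower in IgG1 cells, beside 38.3% of all genes that passed and 20.2% that were lower; 14 genes are too few to set this apart. Irf8, a factor of B cell development, fell from 33.4 ± 3.07 to 10.3 ± 1.20 FPKM (log2 difference -1.61, limma adjusted p = 1.08e-08). Prdm1 (Blimp-1), the plasma cell factor known to repress Cxcr5, fell from 53.5 ± 2.71 to 29.2 ± 2.70 FPKM (-0.86, adjusted p = 6.37e-07). Cxcr5 and Prdm1 were both lower in IgG1 cells, and a link between them was not tested. Pou2af1, an octamer coactivator, went from 320.3 ± 11.6 to 248 ± 16.0 FPKM (-0.37, adjusted p = 2.64e-05) and Nfkb2 from 11.5 ± 2.42 to 7.00 ± 0.899 FPKM (-0.63, adjusted p = 0.00506; SD, n = 5 each). Relb (-0.67, adjusted p = 0.00962) and Irf4 (-0.24, adjusted p = 0.0496) were the other 2. Both were named after their values were seen and were not put through the alternatives.

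**Figure D4:**
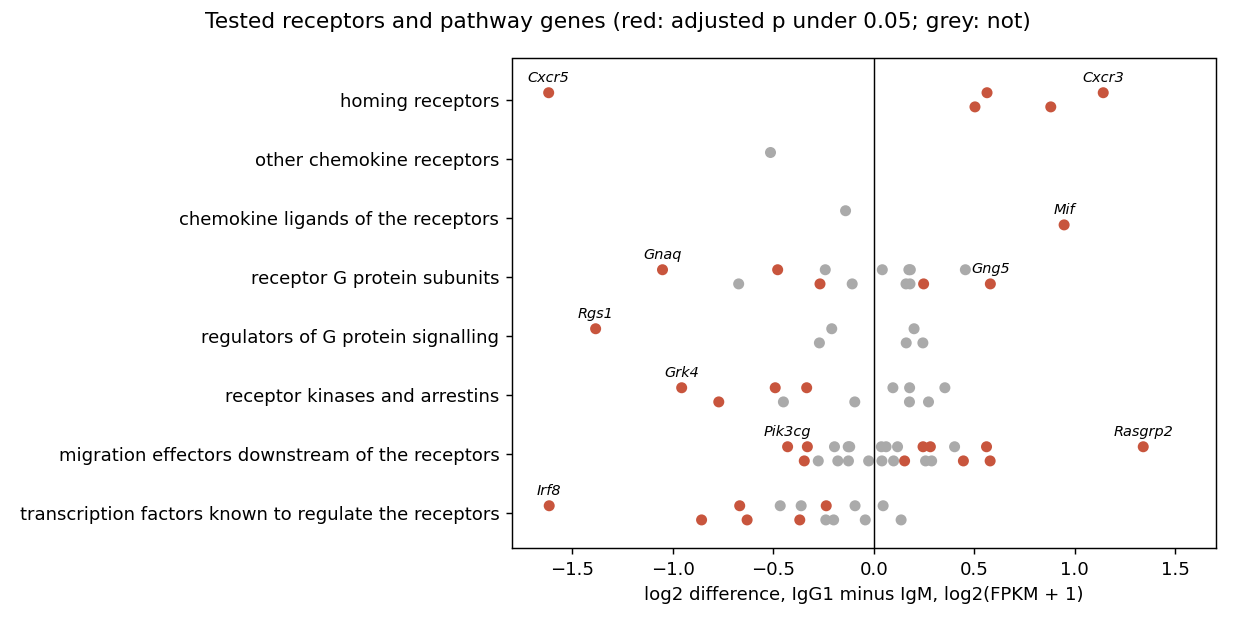
Log2 difference, IgG1 minus IgM (horizontal axis), of each tested receptor and pathway gene, 1 point per gene and 1 line per list, red where the limma adjusted p was under 0.05; the furthest called gene at each end of a list is named. Receptor kinases and transcription factors have red points only below 0 (4 of 11 and 6 of 14), and effectors on both sides (7 above, 3 below, of 25); over all genes 38.3% passed.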

How the data were processed

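RNA was measured in 10 libraries of sorted mouse splenic plasma cells, grouped by sample title into 5 IgM and 5 IgG1. Per the labels' protocols, RNA came from the miRNeasy Micro kit and libraries from the SMART-Seq mRNA HT LP kit, which keeps no strand. Per the submitters' processing notes, the tools were HISAT2 2.1.0, Cufflinks 2.2.1 and Cuffdiff, and the build GRCm38; the sources used here do not give their roles or an annotation release. The authors deposited FPKM values, per the file headers, a share of each library, so a gene that takes more of it lowers the others, and an exact 0 can be a failed estimate.

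Identifiers were matched to GENCODE M21 on GRCm38 (47305 of 47719), and coordinates count from 1. The 9900 genes whose mean reached 1 FPKM were tested on log2(FPKM + 1), a scale that understates changes of low genes, with limma 3.58.1 in R 4.3.3 (eBayes with trend and robust, group as the only term, two-sided, Benjamini-Hochberg over all tested genes at 0.05). The script was tested on simulated data. Depth came from the steps between low values of genes with 1 transcript, assuming fragments of 200 bases; it is approximate and gives no counting interval. Tables and plots used Python 3.11.15, pandas 2.3.3, numpy 2.4.6 and matplotlib 3.10.9.

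The receptors and lists were chosen with earlier results of these data known. Named genes were all 10 receptors, up to 4 genes per pathway list by smallest p among those that passed, or the 2 highest where none passed, and set markers of other cell types, of which 2 are not reported here or summed; others are said to be chosen after their values were seen. Of the other chemokine receptors this rule also gave Xcr1, at 0.142 to 0.701 FPKM in IgM and 0.219 to 0.849 in IgG1 libraries, untested. The tests were repeated with each library left out in turn, with a replicate block, with pseudocounts of 0.1 and 5, without the filter or with one at 5 FPKM, with plain eBayes, and with quantile, median-ratio or immunoglobulin-free total scaling of the libraries. Leaving out IgG1 replicates 4 and 5, and removing length and GC trends, were added after the data were seen. The trends were splines with 4 degrees of freedom, fitted to the tested genes with both values. GC content was available for 99.0% of all 47719 identifiers. The labels give no batch.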

Additional observations from a re-analysis of the deposited data

Results flagged for a closer look

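Receptors were checked in 19 sets of 5 libraries (each receptor in each group, where any value was above 0). In 5 sets a library lay far from the rest by Dixon's criterion at its critical value of 0.71. Chance gives about 1 in 20 for normally distributed values. A single value beside 4 zeros is always flagged, as for Ccr7, Ccr6 and Ackr3 in IgG1, so the number flagged cannot be set against that rate. IgG1 replicate 1 stood apart for Cxcr5 (0.923 FPKM, the next IgG1 library being at 0.221) and for Ccr7 (0.492 FPKM, the other 4 at 0). IgG1 replicate 2 was the only IgG1 library with Ccr6 (0.397 FPKM) and IgG1 replicate 4 the only one with Ackr3 (0.0515 FPKM). In IgM replicate 3, Ccr2 was at 0.251 FPKM, with 0.0540 in the next. Of these 5, 4 concern receptors below 1 FPKM in every library, where most libraries were listed at 0.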

How the results depend on the processing

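None of the 5 tested receptors changed direction in the alternatives they entered, 21 for Cxcr3, Cxcr4 and Gpr183 and 20 for Ccr10 and Cxcr5. The number of tested receptors that passed was 5 in the main test and 4 or 5 in the other settings, except 3 with a mean of at least 5 FPKM, where Cxcr5 and Ccr10 were no longer in the test, and 3 without IgG1 replicates 4 and 5, where Cxcr4 and Gpr183 failed. Leaving out 1 library in turn gave 4 to 5 receptors, 25 to 29 pathway genes and 3428 to 3578 genes in all. Besides leave-one-out, Gpr183 failed with no filter, a common total without immunoglobulin genes, eBayes without trend or robust, the replicate block and without IgG1 replicates 4 and 5 (adjusted p = 0.172, 0.0561, 0.0600, 0.0681 and 0.0828). With a pseudocount of 5, the log2 difference was 0.72 for Cxcr3 and 0.52 for Ccr10. With the replicate block, 4 receptors, 28 pathway genes and 3701 genes passed. The deviations of same-numbered libraries from their group means correlated at 0.04, -0.04, 0.10, 0.07 and -0.03, and 3 of 5 numbers were their own best partner. The labels do not say whether same-numbered libraries are paired, and these values cannot decide it. Of the values for single genes, 472 kept their call, 26 lost it and 1 gained it. For Ackr3, Ccr2, Ccr6, Ccr7 and Ccr9 a difference was not detectable at their low levels. The part of depth in this was not tested.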

Other observations

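Receptors below the filter differed in which group had the higher mean. Ccr4, the receptor for CCL17 and CCL22, had a mean of 0.613 FPKM in IgM and 0.0551 in IgG1, and Ackr4, which scavenges CCL19 and CCL21, 0.326 and 0.128, both with overlapping groups. Xcr1, at 0.263 and 0.448 FPKM, and Ackr2, at 0.0389 and 0.154, were higher in IgG1 by mean. Cxcr2, Cx3cr1, Ackr1 and Cmklr1 were listed at 0 in all 10 libraries. These genes were chosen after their values were seen and were not tested.

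IgM replicate 4 was the only library in which all 10 receptors were above 0, and the other 9 had 5 to 7. It had the highest Cxcr3, Gpr183, Ccr7, Ackr3, Ccr9 and Ccr6 of the IgM libraries. IgM replicate 2, the lowest for Cxcr5, was the highest of its group for Cxcr4.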
